A study of Mus musculus with 10 samples.

Results

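The 10 goblet cell genes described here are Muc2, Fcgbp, Zg16, Tff3, Spink4, Klk1, Guca2a, Agr2, Spdef and Creb3l1. They were chosen by name, with older symbols allowed, and the arrays carried 13 probes for them among 41174 distinct probes for 27729 named genes. Muc2 had 3 probes, Fcgbp had 2 and each other gene had 1. Zg16 is listed on the array under its older name 1810010M01Rik.

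Expression was measured on 10 Agilent 2-colour arrays in 3 comparisons, each 1 day after the perturbation. The first set crypt RNA of mice with floxed Lgr4 and floxed Lgr5 alleles, deleted by P450Cre (called AhCre in the design text), against crypt RNA of wild type mice on the same arrays, as 2 biological replicates with swapped dyes. The second set 2 organoid cultures from VillinCre_Lgr4fl/fl-Lgr5fl/fl mice against 2 cultures from VillinCre_wt mice that, per the labels, had received tamoxifen as well. The third set 1 organoid culture kept without R-spondin (EGF and Noggin alone) against 1 culture in the full medium with EGF, Noggin and R-spondin. Organoids are crypt cells grown as miniature epithelia, and every organoid array carried a commercial mouse reference RNA in Cy3. Whether the wild type crypt mice received the inducing agent is not stated, and the labels name no animals or number of mice per preparation, so the p-values measure only the spread between these samples.

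Goblet cells are the mucus-secreting cells of the intestinal epithelium. They pack the gel-forming mucin Muc2 into granules together with Fcgbp and Zg16, which become part of the mucus layer, and release trefoil factor Tff3 and other small peptides. R-spondin, bound by Lgr4 and Lgr5, strengthens Wnt signals that maintain crypt stem and Paneth cells, whereas goblet cells arise from progenitors that take the secretory route through the factor Atoh1 and then Spdef. Arrays read RNA of whole crypts or organoids, so fewer cells of a type and less RNA per cell cannot be told apart in any value below.

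The probes of Muc2, Fcgbp and Zg16 are shown because Zg16 differed most of the 9 measured members by Cy5 without R-spondin, and Muc2 and Fcgbp were read by more than 1 probe. They are given as the array files list them, in mm9 coordinates and 5′ to 3′. All lie on chromosome 7. The bright Muc2 probe lies at chr7:148940000-148940059 on the plus strand, and the 2 dim ones at chr7:148886790-148887257 and chr7:148883009-148883068 on the same strand. The main Fcgbp probe lies at chr7:28905517-28905576 and the second at chr7:28902583-28905377, both on the plus strand. The 60 bases of the second span 2795 bases of genome and so cross an intron. The Zg16 probe lies at chr7:134193837-134193896 on the minus strand.
Muc2, bright probe: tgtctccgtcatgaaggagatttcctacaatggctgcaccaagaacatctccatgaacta
Muc2, first dim probe: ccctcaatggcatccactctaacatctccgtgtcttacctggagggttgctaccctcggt
Muc2, second dim probe: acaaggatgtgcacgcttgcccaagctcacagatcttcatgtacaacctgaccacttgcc
Fcgbp, main probe: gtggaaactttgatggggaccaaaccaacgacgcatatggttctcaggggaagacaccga
Fcgbp, second probe: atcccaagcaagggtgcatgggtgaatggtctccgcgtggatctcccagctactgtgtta
Zg16: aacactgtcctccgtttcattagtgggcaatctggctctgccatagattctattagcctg

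The remaining probes lie in mm9 on chromosome 17 (Tff3 and Spdef, both minus strand), 4 (Spink4 and Guca2a, plus), 12 (Agr2, plus), 2 (Creb3l1, minus) and 7 (Klk1, plus). One kallikrein probe needs care. Klk1 belongs to a cluster of near-identical genes, and a probe named for Klk1b3 also lists the Klk1 transcript, so the Klk1 values are uncertain.

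On the crypt arrays the scanner software called 40.2% to 56.9% of gene probe spots well above background for the Cy5 dye, and 48.9% to 60.02% for Cy3. The Cy5 share was 46.9% to 50.7% on the organoid deletion arrays and 62.2% and 63.1% on the R-spondin arrays. On the 4 organoid deletion arrays the Cy3 reference was unusual, with negative control medians of 5883 to 6564 against 92.0 to 117 on the other arrays, so deleted and wild type organoids were compared by Cy5 alone, with the ratio beside it. With so few arrays, their number sets the precision of all values. As a check of the labels, the log2 change in deleted crypts was -1.56 for Lgr4 and -1.68 for Lgr5 (limma adjusted p 0.0831 and 0.0821, both short of the 0.05 threshold). Those are the brightest probes of each gene, and a dim Lgr4 probe was above 0 on every crypt array (0.18 to 1.20). In organoids the normalised Lgr4 Cy5 signal was 161 and 286 in deleted cultures, against 2053 and 3165 in wild type cultures. That is a log2 change of -3.57 (limma adjusted p 0.106), but by ratio to the reference RNA it was -0.59. A small change by ratio on these 4 arrays thus says little about a change by Cy5.

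In crypts 1 day after deletion, the goblet cell genes did not move as 1 group. Zg16, a lectin-like protein of mucus granules, was higher in deleted crypts on every usable array, and Spink4, a protease inhibitor peptide, was lower on every usable array. Muc2 and Spdef had means of -0.07 and 0.04. Neither Zg16 nor Spink4 passed the test over all genes. All crypt values below are log2 ratios, deleted over wild type, with the dye swaps of a replicate turned the same way and averaged.

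**Figure D1:**
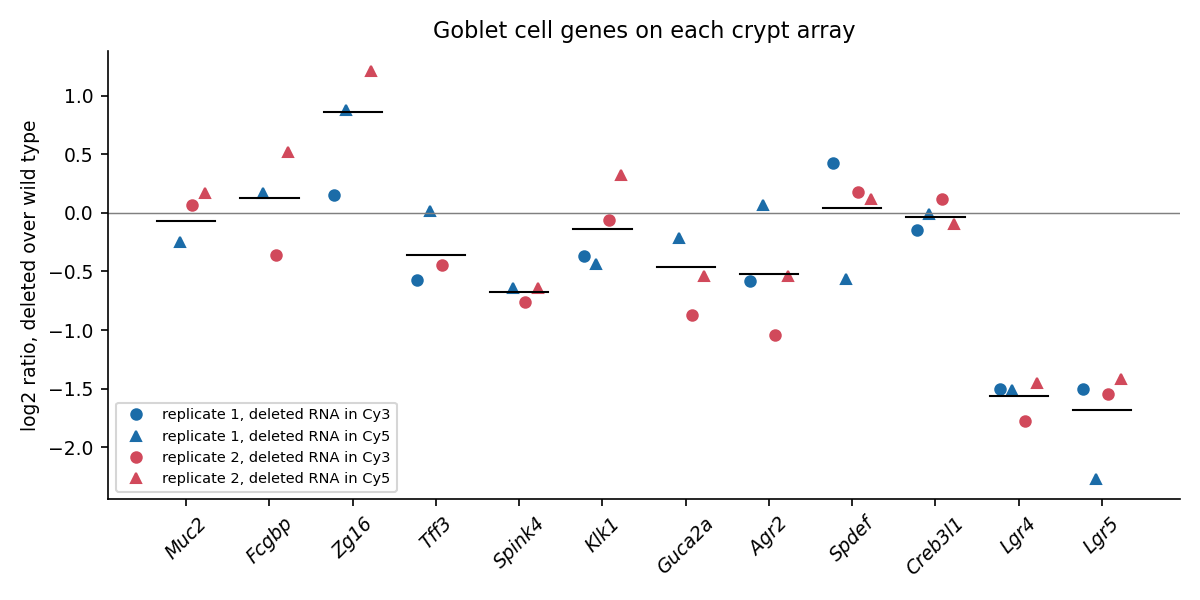
Log2 ratio of deleted over wild type crypt RNA for the 10 goblet cell genes and the deleted Lgr4 and Lgr5 on each of 4 arrays (circles and triangles mark the dye of the deleted RNA, colours the replicate, bars the mean of the replicate values). Zg16 lies above 0 and Spink4 below 0 on every array with a usable spot, while Lgr4 and Lgr5 lie near -1.5.

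Zg16 gave 0.16 and 0.88 on the 2 arrays of replicate 1 and 1.21 on the 1 usable array of replicate 2. Before normalisation the deleted channel was also the brighter for Zg16 on each array. Background-subtracted signals were 230266, 179020, 338403 and 552915 for deleted RNA, against 82753, 162752, 273120 and 67116 for wild type RNA on the same arrays. The third of these spots was marked as an outlier by the scanner software and was not used. In replicate 2 with deleted RNA in Cy5, the deleted channel was also brighter for Spink4 (81457 against 41010) and Agr2 (123123 against 55326). In replicate 1 with deleted RNA in Cy3, it was brighter for Agr2 (63071 against 36874). Both genes had mean changes below 0, so brightness on those arrays does not by itself show a rise of Zg16. In replicate 1 with deleted RNA in Cy5, both were dimmer in the deleted channel (Spink4 14792 against 46044, Agr2 35989 against 64648). The mean change of Zg16 was 0.86 (SE 0.26, n = 2), with an unadjusted p of 0.0156 and a limma adjusted p of 0.269. Zg16 is one of the brightest spots, and there the normalisation decided the size of the change: with arrays centred on their medians in place of loess it was 1.66, and the limma adjusted p 0.00302.

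Spink4 gave -0.64 on the usable array of replicate 1, and -0.76 and -0.64 on those of replicate 2. The mean was -0.67 (SE 0.22, n = 2; unadjusted p 0.0213, limma adjusted p 0.289). The usable arrays lay close together for this gene.

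For Agr2, an endoplasmic reticulum protein needed to make Muc2, replicate 1 had -0.58 and 0.07, replicate 2 had -1.05 and -0.54, and the mean was -0.52 (SE 0.24, limma adjusted p 0.401). Guca2a, which encodes the peptide guanylin, gave -0.21 in replicate 1 and -0.87 and -0.54 in replicate 2, a mean of -0.46 (SE 0.24, limma adjusted p 0.436). Tff3 gave -0.57 and 0.02 in replicate 1 and -0.45 in replicate 2, a mean of -0.36 (SE 0.22, limma adjusted p 0.504). All 3 genes were below 0 in both replicates, although Agr2 and Tff3 were just above 0 on the array of replicate 1 that carried deleted RNA in Cy5, and none passed.

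For Muc2 the usable arrays gave -0.25 in replicate 1 and 0.07 and 0.17 in replicate 2, so the replicates lay on opposite sides of 0 around a mean of -0.07 (SE 0.23, limma adjusted p 0.919). Its dim probes differed from the bright one in replicate 2, at -0.74 and -0.45 for the first and -0.72 and -0.46 for the second, where the bright probe was above 0. Their background-subtracted signals were at most 264.7, against 25243 and 14938 in the wild type channel of the bright probe on the same arrays.

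Fcgbp, whose product is cross-linked to the mucin, gave 0.17 in replicate 1 and -0.36 and 0.52 in replicate 2, a mean of 0.12. The second Fcgbp probe gave -0.06 in replicate 1, and -0.23 and 0.15 in replicate 2. In replicate 2 the dye-swapped arrays lay on opposite sides of 0 for both probes. Spdef, a transcription factor of goblet cell maturation, had 0.42 and -0.56 on the arrays of replicate 1, with 0.18 and 0.12 on those of replicate 2. The dye swap of replicate 1 thus turned its sign, and its mean was 0.04. Klk1 had a mean of -0.14 with replicates at -0.40 and 0.13, and Creb3l1, a membrane-bound transcription factor of secretory cells, a mean of -0.03 with replicates at -0.08 and 0.01.

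Counted together, 3 of the 10 members were above 0 and 7 below, with a median of -0.10 (replicate medians -0.23 and 0.05), against a median of -0.02 over the 12103 genes tested. None of the 10 passed an adjusted p of 0.05 in limma. Over all genes 7 passed, a share of 0.0578% (6 higher, 0.0496%, and 1 lower, 0.00826%), so a count of 0 among 10 members says little about them. At an unadjusted p under 0.05, limma gave 1 member higher and 1 lower, against 783 higher and 893 lower genes in all. The 2 arrays of replicate 1 correlated at 0.348 over 17049 probes and those of replicate 2 at 0.919, so replicate 1 was the noisier pair.

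Markers of other cells moved with the deletion in the same crypts. All 9 T cell markers were above 0, with a median of 1.72 and summed signals of 14422 to 17305 in deleted crypts, against 4267 to 5727 in wild type crypts over 7 of the markers. All 10 tested enterocyte markers were above 0 (median 0.63), all 8 tested Paneth cell markers below 0 (median -0.90), and 8 of 9 stem cell markers below 0 (median -0.69). Of 6 tested tuft cell markers 5 were above 0 (median 0.37), of 9 enteroendocrine markers 4 (median -0.14), and all 5 stromal markers were below 0 (median -0.76). None of these genes passed the test singly, and their part in the goblet cell values was not tested. The widest moves in each list were Ccl5 at 2.46 (T cell), Ada at 2.31 (enterocyte), Defa21 at -1.65 (Paneth), Slc14a1 at -2.11 and Rnf43 at 0.02 (stem), Alox5ap at -0.10 (tuft), Chga at 0.62 and Tac1 at -0.83 (enteroendocrine) and Col1a2 at -1.16 (stromal).

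In deleted organoids, as in deleted crypts, no member passed the test, and the difference between crypts and organoids was not tested. Muc2 and Fcgbp were each higher in both deleted cultures than in both wild type cultures, as were 18.1% of all 13200 genes. Zg16 overlapped, and the other tested members differed by 0.38 or less. Changes are in log2 Cy5 signal, deleted minus wild type.

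**Figure D2:**
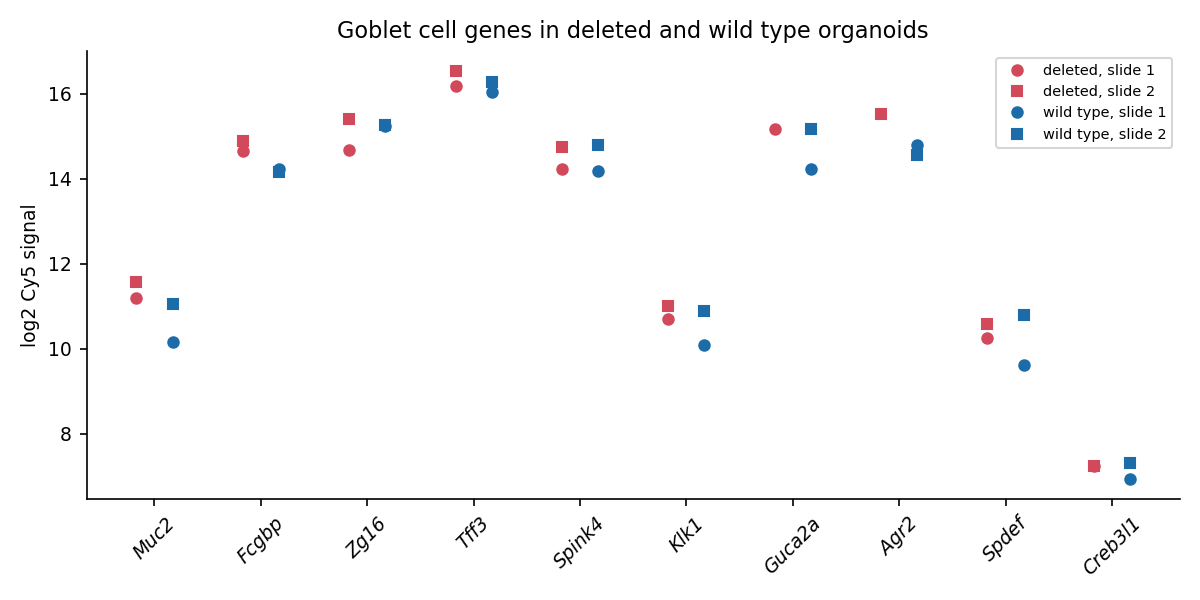
Log2 Cy5 signal of the 10 goblet cell genes in 2 deleted and 2 wild type organoid cultures (circles and squares mark the 2 slides, each with 1 culture of either kind). Muc2 and Fcgbp lie higher in both deleted cultures, as did 18.1% of all genes tested. For Guca2a and Agr2, 1 deleted value each is missing because the spot was marked.

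Muc2 had log2 Cy5 signals of 11.21 and 11.57 in deleted cultures, against 10.16 and 11.05 in wild type cultures. The groups did not overlap, but the wild type cultures lay further apart from each other (SD 0.63) than the deleted ones (SD 0.26). The change was 0.78 (SE 0.35, n = 2 each; unadjusted p 0.0632, limma adjusted p 0.672), or 1.04 and 0.52 within the 2 slides. It was 0.34 without wild type replicate 1 and 1.23 without wild type replicate 2. With the slide as a block the limma adjusted p was 0.0935, still above the threshold. By ratio to the reference RNA the change of Muc2 was 0.41 (SE 0.20, limma adjusted p 0.960). These values are of the bright probe. The first dim probe had 6.62 and 6.55 in deleted cultures, against 6.34 in the wild type culture with a usable spot, not well above background. The second had 6.34 and 6.29 in deleted cultures, against 6.36 and 6.33 in wild type cultures, none well above background.

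Fcgbp had 14.64 and 14.89 in deleted cultures, against 14.23 and 14.16 in wild type cultures, again without overlap. Its change was 0.57 (SE 0.22, unadjusted p 0.0414, limma adjusted p 0.611), or 0.41 and 0.73 within the slides. By ratio, by which the Lgr4 change was small as well (-0.59), it was 0.10, and there the groups overlapped. The second Fcgbp probe had 13.68 in the deleted culture with a usable spot, against 12.82 and 13.29 in wild type cultures.

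Agr2 had no fitted value, because its spot was marked as an outlier in 1 deleted culture. The usable values were 15.52 in a deleted culture, against 14.80 and 14.56 in wild type cultures. With marked spots kept, the change was 0.66 (unadjusted p 0.0111, limma adjusted p 0.502). Guca2a lacked the other deleted value and had 15.17 in a deleted culture, against 14.23 and 15.17 in wild type cultures. It gave 0.30 with marked spots kept (limma adjusted p 0.944).

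Zg16 was 14.68 and 15.41 in deleted cultures, against 15.23 and 15.28 in wild type cultures. Its change of -0.21 was -0.55 in slide 1 and 0.13 in slide 2, and by ratio it was 0.13. Spink4 was 14.24 and 14.75 in deleted cultures, against 14.18 and 14.79 in wild type cultures. Here the slides differed and the genotypes hardly did, with a change of 0.0076. Tff3 was 16.19 and 16.53 in deleted cultures, against 16.03 and 16.28 in wild type cultures, a change of 0.21 (SE 0.24). Klk1 differed by 0.38, Spdef by 0.22 and Creb3l1 by 0.11, each with overlapping groups, and Creb3l1 was dim in all 4 cultures at 6.94 to 7.33.

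Of the 8 members fitted, 7 were above 0 and 1 below, with a median of 0.21 (0.35 and 0.13 within the slides) against 0.02 over 13200 genes. The same median was 0.13 over 7 members by ratio. Limma called 0 of the 8 members at an adjusted p under 0.05, where it called 5 of all genes, a share of 0.0379% (4 higher, 0.0303%, and 1 lower, 0.00758%). At an unadjusted p under 0.05 there was 1 member higher and 0 lower, against 456 higher and 562 lower genes in all. By ratio limma called 0 of 12778 genes, a share of 0%, with 267 higher and 229 lower at an unadjusted p under 0.05. The slide as a block raised the number of called genes to 347, none of them a member. Groups did not overlap by Cy5 for 2 of the 8 members, Muc2 and Fcgbp, both higher, where 36.7% of all genes had groups that did not overlap (18.1% higher, 18.5% lower).

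Stem cell markers were lower in the same deleted cultures, with all 8 tested below 0 (median -1.84) and summed signals of 4739 and 6545, against 21148 and 32275 in wild type cultures. Of 9 Paneth cell markers 8 were below 0 (median -0.74), of 10 enterocyte markers 9 were above 0 (median 0.40), of 9 enteroendocrine markers 3 were above 0 (median -0.08), and all 6 tuft cell markers were below 0 (median -0.36). Only 2 of 9 T cell markers were tested, with Cd3d, Cd8a and Gzma not above background in any of the 4 cultures, and 5 of 6 stromal markers were below 0 (median -0.19). The widest moves were Olfm4 at -4.42 (stem), Nupr1 at 0.49 and Pla2g2a at -1.64 (Paneth, the second not well above background in deleted cultures), Lct at 1.24 and Ada at -0.97 (enterocyte), Sst at 2.38 and Chgb at -0.54 (enteroendocrine), Ptgs1 at -0.57 (tuft), Cd3e at 0.02 and Ccl5 at -0.03 (T cell), and Acta2 at 0.17 and Dcn at -0.25 (stromal). None of these passed the test, and their part in the goblet cell values was not tested.

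Without R-spondin for 1 day, the organoid signal of 4 mucus genes was much higher than in the culture that had it. In the Cy5 channel, which holds the organoid RNA, Zg16 was higher by 2.94, Muc2 by 2.78, Agr2 by 1.78 and Fcgbp by 1.69 on the log2 scale. These were the 6th, 11th, 149th and 183rd largest rises of 17471 genes. The ratio to the reference RNA gave far less for the same genes, because their Cy3 signal differed between the arrays too. By ratio Zg16, Muc2, Agr2 and Fcgbp ranked 2407, 912, 1647 and 6572 of 17025 genes. With 1 culture a group there is no replicate check and no test.

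**Figure D3:**
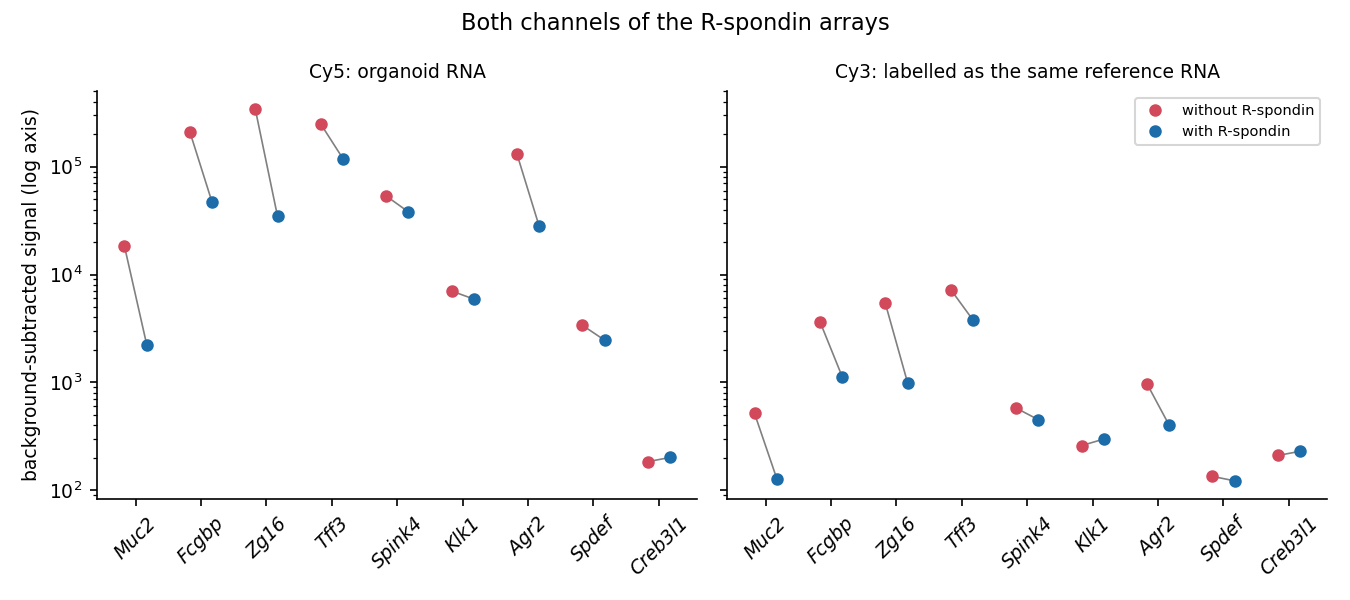
Background-subtracted Cy5 signal (organoid RNA) and Cy3 signal (reference RNA) on log axes for the 9 goblet cell genes with usable spots, without R-spondin left of with R-spondin. Muc2, Fcgbp, Zg16 and Agr2 are higher without R-spondin in both panels, although the Cy3 RNA carries the same label on both arrays.

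Zg16 had a background-subtracted Cy5 signal of 341436 without R-spondin, against 34703 with it. Its Cy3 signal was 5404 without R-spondin, against 995 with it, a log2 difference of 2.46 in a channel labelled as the same RNA. The difference of log2 ratios was accordingly 0.54.

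Muc2 had a Cy5 signal of 18292 without R-spondin, against 2244 with it. In Cy3 it was 517 without R-spondin, against 129 with it (log2 difference 1.88), which left a ratio difference of 0.93. Both dim Muc2 probes were higher without R-spondin as well, with Cy5 signals of 178 without against 50.1 with for the first, and 133 without against 43.5 with for the second, where the value with R-spondin was not well above background. Their Cy3 signals hardly differed, at 75.5 without against 73.9 with for the first and 57.3 without against 63.9 with for the second. The log2 ratio to the reference was 1.20 without against 0.14 with for the first, and 1.20 without against 0.20 with for the second. The dim probes were thus higher by Cy5 and by ratio, with little difference in their reference signal. That reference signal was low, near the Cy3 signals of an Lgr5 probe not above background in Cy5 (45.8 without against 52 with). A small Cy3 difference could therefore have gone unseen.

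Fcgbp had a Cy5 signal of 209979 without R-spondin, against 46672 with it, and 3664 against 1133 in Cy3 in the same order. Its ratio difference was 0.18, against a Cy5 difference of 1.69. On the second Fcgbp probe the Cy5 signal was 100418 without R-spondin, against 25303 with it. The log2 ratio of that probe was 5.96 without R-spondin, against 5.47 with it. Agr2 had a Cy5 signal of 131313 without R-spondin, against 28053 with it, and 972 without against 401 with in Cy3. Its ratio difference was 0.68.

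Tff3 was bright in both cultures, with a Cy5 signal of 248959 without R-spondin, against 118720 with it. Its normalised Cy5 difference was 0.74, its Cy3 difference 0.99 and its ratio difference -0.16. Spink4 had 53540 without R-spondin, against 38083 with it, which after normalisation was a difference of -0.0015. Spdef, Klk1 and Creb3l1 differed by 0.32, -0.01 and -0.13 in Cy5 and by 0.23, 0.29 and -0.08 by ratio. Guca2a had marked spots on both arrays. With them kept it gave 0.27 in Cy5 and -0.16 by ratio.

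By ratio, 6 of the 9 members measured were above 0, with a median of 0.23 against 0.07 over 17025 genes. No member reached a log2 change of 1 on its brightest probe, where 11% of all genes did (4.49% higher, 6.5% lower). With the mean over all tested probes, Muc2 gave 0.996 and Fcgbp 0.33. By Cy5 the median was 0.74 against 0.05 over all genes, and 4 members were higher by at least 1, where 5.5% of all genes were (12.6% in either direction, 7.13% lower). The scanner software's own ratios, which the deposited series table also holds, gave a median of 0.04 and Muc2 at -0.08.

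The Cy3 channel held still for nearly all other genes. Its median difference between the arrays was -0.0040 over 17025 genes, and 62 genes (0.364%) were higher in Cy3 by at least 1 without R-spondin. Among those were 4 members, Muc2, Fcgbp, Zg16 and Agr2, and 61 of the 62 were also higher by at least 1 in Cy5. Of the 928 genes higher by at least 1 in Cy5 that had a Cy3 value, 61 were higher by at least 1 in Cy3. As a share of the Cy5 signal, the Cy3 signal was 1.58% for Zg16, 1.75% for Fcgbp, 0.741% for Agr2 and 2.82% for Muc2 without R-spondin, against 2.87%, 2.43%, 1.43% and 5.73% with it. The cause of the Cy3 difference was not tested.

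**Figure D4:**
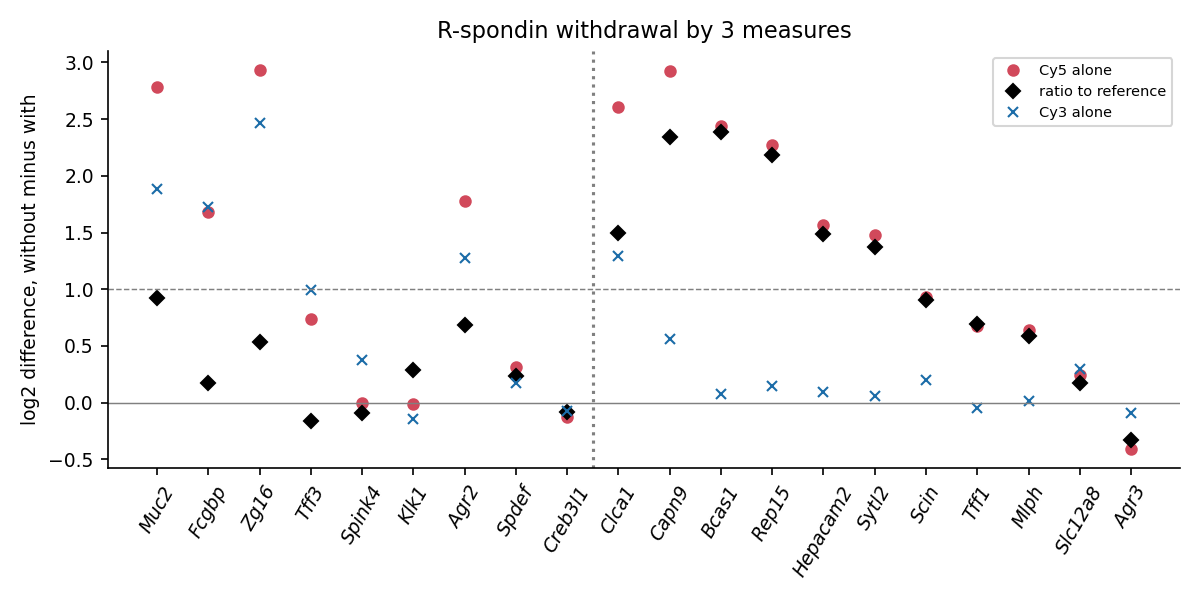
Log2 difference, without minus with R-spondin, for 9 goblet cell genes (left of the dotted line) and 11 other goblet cell genes by Cy5 alone, by ratio and in the Cy3 reference alone. For Muc2, Zg16, Agr2, Fcgbp and Clca1 the Cy3 difference is above 1 and the ratio lies well below Cy5, while for Bcas1 and Rep15 Cy3 is near 0 and both measures lie above 2.

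Further goblet cell genes were higher without R-spondin by both measures. Bcas1 had a Cy5 signal of 3271 without R-spondin, against 533 with it. It differed by 2.38 by ratio and 2.44 by Cy5, with a Cy3 difference of 0.08, and another of its probes differed by 1.52 by ratio. Rep15, a Rab15-binding protein, differed by 2.18 by ratio and 2.27 by Cy5, and Hepacam2 by 1.49 and 1.57, with Cy3 differences of 0.15 and 0.09. Sytl2, a synaptotagmin-like protein of granule membranes, differed by 1.38 and 1.48, with 0.05 in Cy3. Capn9, a protease of the gut lining, differed by 2.34 and 2.93, with 0.57 in Cy3. The chloride channel regulator Clca1, a secreted mucus protein, gave 1.49 by ratio and 2.60 by Cy5, and its Cy3 signal was higher by 1.29, like that of the 4 members. Agr3, a relative of Agr2, gave -0.33 by ratio and -0.41 by Cy5. Of the 16 further goblet cell genes listed, 11 were measured by ratio, with 6 higher by at least 1, 0 lower and a median of 1.38. By Cy5 12 were measured, with 6 higher and a median of 1.21. Among all genes 4.49% by ratio and 5.5% by Cy5 were higher by at least 1.

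After deletion, 13 genes of the same list were tested in crypts, with 5 above 0, 8 below and a median of -0.03. Retnlb, a secreted antimicrobial protein, had the widest rise at 2.33 (SE 0.24, limma adjusted p 0.0535) and Agr3 the widest fall at -0.89 (limma adjusted p 0.246). In organoids 12 were tested, 10 above 0, with a median of 0.31. Scin, an actin-severing protein, had the widest rise at 1.97 (SE 0.30, limma adjusted p 0.162) and Agr3 the widest fall at -2.01 (SE 0.21, limma adjusted p 0.106). Clca1 gave 0.83 in crypts and 0.22 in organoids, and Bcas1 -0.04 and 0.38. None of these passed.

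**Figure D5:**
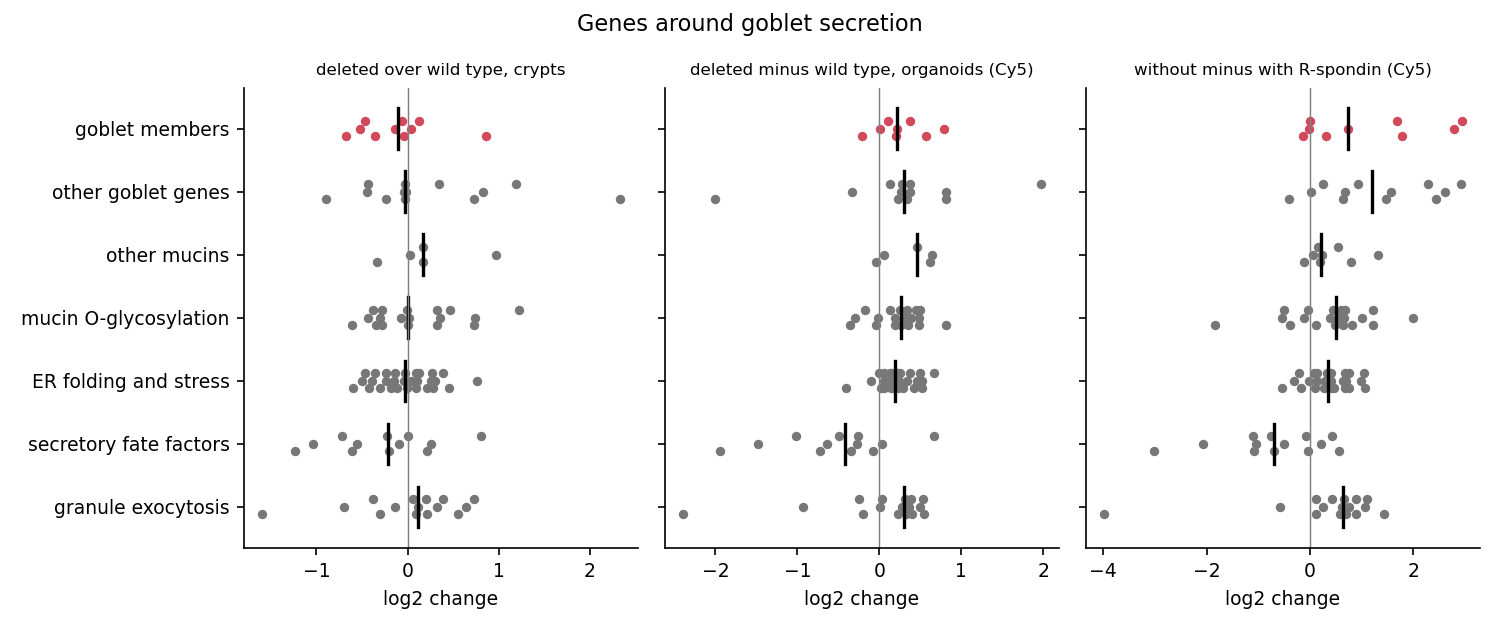
Log2 change of each tested gene of 7 lists (points) and the list median (bar) in crypts, deleted organoids by Cy5 and R-spondin withdrawal by Cy5. The secretory fate factors have medians of -0.21, -0.42 and -0.69, the lowest of the 7 lists in each panel. The goblet cell members have medians of -0.10, 0.21 and 0.74. By ratio, not drawn, the R-spondin medians were -0.26 for the fate factors and 0.23 for the members.

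Listed transcription factors and Notch pathway genes around secretory fate were mostly lower without R-spondin, on the arrays on which 4 mucus genes were higher by Cy5. Their roles differ, so the list is no single measure of goblet cell fate. Of 13 measured, 9 were below 0 by ratio and 10 by Cy5, with medians of -0.26 and -0.69. By at least 1, 2 were lower by ratio and 5 by Cy5, where 6.5% and 7.13% of all genes were. Sox9, a factor of the crypt base, differed by -2.83 by ratio and -3.02 by Cy5, and another of its probes by -0.61 by ratio. Foxa2, a factor that binds the Muc2 gene, differed by -1.84 and -2.07, Foxa3 by -0.84 and -1.03, and Foxa1 by -0.82 and -1.08. Atoh1 differed by 0.32 and 0.42 and Gfi1 by 0.21 and 0.22, so not every factor of the list was lower. Klf4, a factor of goblet cell differentiation, was the highest, at 0.88 and 0.56. After deletion Klf4 was also the highest of the list, at 0.81 in crypts (limma adjusted p 0.249) and 0.66 in organoids (0.589), and Sox9 the lowest, at -1.23 (limma adjusted p 0.155) and -1.94 (0.390). The list had 8 of 12 genes below 0 in crypts and 10 of 12 in organoids, none past the test.

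Of the enzymes and transporters of mucin O-glycosylation, 20 of 26 were measured without R-spondin, 16 above 0 by ratio with a median of 0.54. By at least 1, 3 were higher and 1 lower, where 4.49% and 6.5% of all genes were. St3gal4, a sialyltransferase, was the highest at 1.25 by ratio and 1.98 by Cy5, and St3gal1, another sialyltransferase, the lowest at -1.69 and -1.84. C1galt1c1, the chaperone of core 1 synthase, differed by 1.08 and Slc26a2, a sulfate transporter, by 1.20. In crypts the list had a median of 0.0009, with the sulfotransferase Chst4 at 1.22 (limma adjusted p 0.144) and C1galt1 at -0.61 (0.485), where a second C1galt1 probe gave 0.17. In organoids the median was 0.26, with St3gal1 at 0.81 (limma adjusted p 0.673) and St6galnac2 at -0.36 (0.909).

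Of the endoplasmic reticulum folding and stress genes, 27 were measured without R-spondin by ratio, 23 above 0 and 2 higher by at least 1, with a median of 0.36. Among all genes 57.6% were above 0 and 4.49% higher by at least 1, so the count of 2 says little. Creb3l2, a relative of Creb3l1, was the highest at 1.07 and the chaperone partner Sdf2l1 the lowest at -0.34. In organoids 24 of 27 were above 0 (median 0.20), from the chaperone Hspa5 at 0.67 (limma adjusted p 0.838) to Creb3l4 at -0.40 (0.755). In crypts 13 of 29 were above 0 (median -0.03), from Creb3l2 at 0.77 (limma adjusted p 0.265) to Sdf2l1 at -0.60 (0.512). None passed in either comparison.

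For granule release, 14 of 16 genes were above 0 without R-spondin by ratio (median 0.52), where 57.6% of all genes were. Rab27b, a small GTPase of granules, was at 1.15. Slc12a2, the chloride transporter of crypt cells, was the lowest at -3.75. It was also the lowest in deleted crypts at -1.59 (limma adjusted p 0.0839) and deleted organoids at -2.39 (0.358), while Stx3, a syntaxin, was the highest there at 0.73 (0.280) and 0.55 (0.774). Another Stx3 probe gave -0.29 in organoids. The medians were 0.12 in crypts and 0.30 in organoids.

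Among the other mucins, the membrane-bound Muc3 was the highest without R-spondin at 1.19 by ratio and Muc1 the lowest at -0.17. In crypts Muc3 was at 0.97 (limma adjusted p 0.206) and Muc4 at -0.34 (0.521). In organoids Muc13 was at 0.64 (limma adjusted p 0.555) and Muc6 at -0.04 (0.997). The medians were 0.21 without R-spondin, 0.17 in crypts and 0.46 in organoids.

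Other cell type markers moved with R-spondin on the same arrays. All 9 stem cell markers were lower by at least 1 (median -2.09 by ratio), and Lgr5 was not well above background without R-spondin. By ratio 6 of 8 Paneth cell markers were below 0 (median -0.30), 5 of 6 enterocyte markers above 0 (median 0.18), 9 of 9 enteroendocrine markers above 0 (median 0.78) and 6 of 6 tuft cell markers above 0 (median 0.39). By Cy5 the Paneth, enterocyte and enteroendocrine medians were -1.13, 0.91 and 1.05, with summed enteroendocrine signals of 181307 without R-spondin against 89110 with it. Of 5 T cell markers 4 were above 0 by ratio (median 0.12), with Cd3d, Cd8a and Gzma not well above background in either culture, and of 7 stromal markers 4 (median 0.0096). The widest moves by ratio were Defa21 at 0.05 and Cd24a at -1.76 (Paneth), Cbr1 at 0.87 and Slc5a1 at -0.05 (enterocyte), Tph1 at 1.12 (enteroendocrine, not well above background with R-spondin), Dclk1 at 0.70 (tuft), Cd3e at 0.26 and Ccl5 at -0.02 (T cell), and Dcn at 0.33 and Col1a1 at -0.02 (stromal). Their part in the goblet cell values was not tested.

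Side by side, Muc2 gave -0.07 in deleted crypts, 0.78 in deleted organoids and 2.78 without R-spondin by Cy5. For Fcgbp the 3 values were 0.12, 0.57 and 1.69, for Zg16 0.86, -0.21 and 2.94, and for Spink4 -0.67, 0.0076 and -0.0015. By ratio the change without R-spondin was 0.93 for Muc2, 0.18 for Fcgbp, 0.54 for Zg16 and -0.09 for Spink4. Over 6 values (3 crypt arrays with a usable Muc2 spot, 2 organoid slides and the R-spondin ratio), the genes of 9751 whose profile was most like that of Muc2 were Cln8 (Pearson r 0.997), Vamp2 (0.991), Nedd9 (0.989), Tbce (0.988) and Lman2 (0.985). Of the members, Spink4 ranked 186th (r 0.895) and Klk1 344th (r 0.854), with Fcgbp at r 0.331. Of the 3 crypt arrays 2 share RNA, and 6 points choose among many genes, so these are descriptions without a test.

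Because Muc2, Fcgbp and Agr2 were higher together in Cy5 without R-spondin, the 250 bases before their annotated starts are shown from RefSeq (GRCm38.p6), at chr7:141690090-141690339, chr7:28070986-28071235 and chr12:35992675-35992924, all on the plus strand. Zg16 had no entry among the 6 members that did. Capitals mark matches, on either strand, to 7 motifs that were searched: CAGCTG (an E-box of basic helix-loop-helix factors), AGATAA (zinc finger factors of the GATA family), TTTATNG (Cdx factors), TGTTTAC (Foxa factors), CTTTGA (Tcf factors), TGACGTG (a stress response element) and CCGGAA (Ets factors).
Muc2 promoter: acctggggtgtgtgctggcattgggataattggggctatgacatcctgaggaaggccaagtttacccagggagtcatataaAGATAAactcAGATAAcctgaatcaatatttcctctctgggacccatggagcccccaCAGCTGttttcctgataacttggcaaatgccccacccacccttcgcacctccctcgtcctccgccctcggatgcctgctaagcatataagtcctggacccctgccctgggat
Fcgbp promoter: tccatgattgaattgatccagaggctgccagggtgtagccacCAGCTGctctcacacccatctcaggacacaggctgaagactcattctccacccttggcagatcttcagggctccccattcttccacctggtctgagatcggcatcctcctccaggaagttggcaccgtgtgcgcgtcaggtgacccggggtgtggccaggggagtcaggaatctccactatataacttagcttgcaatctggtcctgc
Agr2 promoter: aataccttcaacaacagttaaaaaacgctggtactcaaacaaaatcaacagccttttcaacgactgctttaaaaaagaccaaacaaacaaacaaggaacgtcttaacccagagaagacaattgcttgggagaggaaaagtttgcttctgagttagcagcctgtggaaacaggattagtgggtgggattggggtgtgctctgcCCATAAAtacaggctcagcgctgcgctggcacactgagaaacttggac

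Muc2 held the E-box 112 bases and GATA matches 169 and 159 bases before the start. Fcgbp held the E-box 208 bases before it, and Agr2 a Cdx match 48 bases before it. Over 32851 promoter windows of 300 bases, 16.3% held the E-box, 11.2% the GATA, 10.9% the Cdx, 3.65% the Foxa, 16% the Tcf, 2.01% the stress response and 14.9% the Ets motif. No motif was shared by the 3 promoters, and a match describes letters in the window only.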

How the data were processed

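The authors' scanner files, per the file headers made with Agilent Feature Extraction 10.5.1.1 (8.5.1.1 per the submitters' processing notes), hold raw and processed signals in the unit intensity, and the deposited ratio is the log10 of Cy5 over Cy3. The deposited series table holds the same log10 ratios, turned round where crypt RNA of deleted mice was in Cy3 (2 arrays). Its column medians were 0 on 6 arrays, and up to 0.0956 on the organoid deletion arrays, so those columns are not median-centred. Probe names came from the files, updated through RefSeq accessions.

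Raw signals were background-corrected in limma 3.58.1 (R 4.3.3) by normexp with an offset of 50, leaving out spots marked as outliers. Crypt and R-spondin log2 ratios were normalised by loess (span 0.3), and organoid deletion log2 Cy5 signals by quantiles. Dye swaps were averaged, and where 1 array had a marked spot the other gave the replicate's value. Testing needed a signal well above background on all arrays of at least 1 group, and the brightest tested probe represented its gene. Crypt ratios were tested against 0 and deleted against wild type organoids with limma, two-sided, with Benjamini-Hochberg adjustment over all genes, after a check on simulated data. R-spondin withdrawal had 1 culture a group and no test, so a log2 change of 1 was counted as higher or lower. Cy5 alone was set beside the ratio there, and the crypt fit had 1 residual degree of freedom.

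Each organoid slide held 1 deleted and 1 wild type culture. The differences between slides correlated at 0.534 between the genotypes over 13200 genes. The titles do not number these cultures, so the slide was an alternative block. Other alternatives were median centring, the series table, the scanner's processed signals, no filter, the mean over probes, marked spots kept, 1 dye alone and leaving out each replicate. Named were all members with all their probes, the tested gene with the widest rise and fall of every other list in each comparison, Lgr4 and Lgr5, and the 5 genes most like Muc2; other list genes were named after their values were seen, and 2 genes that the rule picks are not reported here. The members and lists were chosen with earlier results of these data known.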

Additional observations from a re-analysis of the deposited data

Results flagged for a closer look

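The Tff3 change had opposite signs after deletion of Lgr4 and Lgr5 in crypts (by P450Cre) and in organoids (by VillinCre). The log2 change was -0.36 in crypts, below 0 in both replicate means (-0.28 and -0.45), although 1 of the 3 usable arrays gave 0.02. In organoids it was 0.21 by Cy5, above 0 within both slides (0.16 and 0.25), although the groups overlapped and the change was -0.0057 with marked spots kept. Neither change passed limma (adjusted p 0.504 in crypts and 0.918 in organoids), and the difference between crypts and organoids was not tested.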

How the results depend on the processing

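No member passed a threshold in crypts or organoids under any alternative except Zg16 in crypts under median centring (1.66). In 90 crypt settings of single members 13 changed sign, in 94 organoid settings 11, and in 90 R-spondin settings 11, and the cause was not tested. In crypts the changes of sign were Muc2 at 0.041 with processed signals and with the series table, 0.13 with marked spots kept and 0.12 without replicate 1 (-0.25 without replicate 2); Spdef at -0.037 with processed signals and the series table, -0.22 with deleted RNA in Cy5 alone and -0.070 without replicate 2 (0.15 without replicate 1); Klk1 at 0.17 and Creb3l1 at 0.026 under median centring, and 0.13 and 0.0088 without replicate 1 (-0.40 and -0.077 without replicate 2); and Fcgbp at -0.14 with deleted RNA in Cy3 alone. In organoids they were Spink4 at -0.14 by ratio and with processed signals, -0.11 with marked spots kept, -0.30 without wild type replicate 1 and -0.25 without deleted replicate 2 (highest 0.31, without wild type replicate 2); Zg16 at 0.13 by ratio and 0.16 without deleted replicate 1 (lowest -0.57, without deleted replicate 2); Tff3 at -0.0057 with marked spots kept; and Spdef at -0.36, Klk1 at -0.025 and Creb3l1 at -0.084 without wild type replicate 1 (highest 0.80, 0.78 and 0.30, without wild type replicate 2). Without R-spondin they were Muc2 at -0.082 with processed signals and with the series table; Tff3 at 0.74 by Cy5 alone and 0.044 with median centring; Spink4 at 0.055 with median centring; and Klk1 at -0.015 by Cy5 alone. By Cy5 in settings added after seeing the data, they were Tff3 at 1.01 and Spink4 at 0.44 with median centring, Tff3 at 0.50 with processed signals, and Tff3 at 0.82 and Klk1 at -0.022 with marked spots kept. In crypts the median was -0.077 without replicate 2 and 0.12 without replicate 1, over 7 members, as Tff3, Agr2 and Guca2a dropped out. Over all 10 members the medians of replicates 1 and 2 were -0.23 and 0.05. In organoids the median of the members without 1 culture ran from -0.055 to 0.43. Without R-spondin that median was 0.74 by Cy5, 0.038 with processed signals and with the series table, and 0.34 with median centring. By Cy5 it was also 1.01 with median centring, 0.50 with processed signals and 0.57 with marked spots kept, all 3 added after seeing the data. The number of genes called in crypts was 506 with processed signals, 546 with the series table, 47 with marked spots kept, 325 under median centring, 0 with no filter, 88 and 448 with deleted RNA in Cy5 or Cy3 alone, 98 with the mean over probes, and 0 to 170 without 1 replicate. In organoids it was 0 by ratio, 79 with processed signals, 28 with the series table, 1 with marked spots kept, 0 with no filter, 347 with the slide as a replicate block, and 3 to 111 without 1 culture. The block changed no call of a member (Muc2 at a limma adjusted p of 0.0935). Organoid fits that leave out 1 culture assume that the lone culture varies like the others. With 1 crypt replicate left, the fit took its spread from the ratios of the organoid deletion arrays, whose Cy3 reference was unusual. Only the changes are therefore given for it. Signal over background limits Creb3l1 and the dim Muc2 probes.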
